A study of Rattus norvegicus with 6 samples.

Results

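The proteins described here are 9 regulators that read sequence elements in the 3' untranslated regions of mRNAs: Elavl1, Zfp36, Zfp36l1, Khsrp, Tia1, Tial1, Celf1, Pum2 and Igf2bp2. They were chosen by name, as proteins other than AUF1 that act on AU-rich or related elements, and the rule uses no measured value, although earlier results of these data were known when it was written. All 9 had a row in the deposited count table of 18718 genes, and all 9 passed the filter on low counts that left 12268 genes to test. Their RNA was measured in HEI-OC1 cells, an established line of auditory cells taken originally from the cochlea's organ of Corti, labelled as rat in the sample records and generally known as a mouse line. Of 6 libraries, 3 came from cells given an siRNA against Hnrnpd, the gene of AUF1 (siHnrnpd 1 to 3), and 3 from cells of the same line given a control siRNA (control 1 to 3), with no other genotype or agent in the labels. The labels name neither the siRNA sequence nor the time after transfection, and since separate cultures are not stated, the spread between libraries may be technical.

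An AU-rich element is a stretch of an mRNA, often with the pentamer AUUUA, that marks the message for rapid decay or for control of its translation. Its fate depends on which protein sits on it. AUF1, ELAVL1, the ZFP36 family, KHSRP, TIA1 and TIAL1 can occupy overlapping sites, and some of them promote decay while others protect the message. CELF1 reads GU-rich elements, PUM2 reads Pumilio elements containing UGUA, and IGF2BP2 binds mRNAs that it stabilises or helps to translate, so these 3 are relatives in function rather than strict readers of AU-rich elements.

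The libraries held 28984535 to 35842904 counts, and the 9 genes together took 0.0421% to 0.0468% of them. The siRNA target was reduced: Hnrnpd, listed as Hnrpd on chromosome 14, averaged 297 ± 25.9 CPM (counts scaled to library size) over the controls and 187 ± 12.2 CPM over the siHnrnpd libraries (SD, n = 3 each), 62.8% of the former, and fell by 0.67 on the log2 scale (adjusted p = 0.0426 by edgeR's quasi-likelihood test). AUF1 RNA was thus lowered and not removed. The call was lost without any library other than siHnrnpd 2 (edgeR adjusted p from 0.0508 to 0.319 in those 5 fits), with log2 values of -0.74 to -0.63 over all 6. With no library left out, Hnrnpd had an adjusted p of 2.1e-10 by DESeq2 and 0.0445 by limma-voom. In bulk RNA, fewer cells that express a gene and less RNA per cell cannot be told apart. Of 12 hair cell markers, 3 passed the filter, with Myo6 at 36.7 CPM, Myo7a at 0.272 CPM and Ocm, matched by synonym to the row Ocm2, at 0.598 CPM in control. Ocm was the 1 of these 3 whose groups did not overlap (log2 value -0.87, adjusted p = 0.381 by edgeR), while Gfi1 was at 0 CPM in control and Atoh1 and Pou4f3 had no matched row. Of 8 epithelial markers, only 3 had a matched row, and these summed to at most 0.211 CPM in any library. The level of the others could not be read. The 10 fibroblast markers, of which 7 passed the filter, summed to 3131 to 3558 CPM in control and 3554 to 4118 CPM in siHnrnpd. Most of that sum was Col1a1, with means of 2093 CPM in control and 2601 CPM in siHnrnpd. Col3a1 averaged 588 and 603 CPM, and Col1a2 only 3.16 and 3.36 CPM. In siHnrnpd 3 the 20 interferon-stimulated genes examined averaged -2.16 on the log2 scale from the control mean, while siHnrnpd 1 and 2 lay at -0.66 and -0.49. The part of these marker and interferon differences in the values below was not tested. Values without siHnrnpd 3 are named as such for Elavl1, Khsrp, Tial1 and Igf2bp2, and for no gene of the further lists.

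The RNA of the 9 regulators stayed close to its control level when Hnrnpd was lowered. Group means in siHnrnpd lay between 89.3% of control for Zfp36l1 and 115% for Tia1, and none of the 9 passed the test over all genes (edgeR adjusted p from 0.443 to 0.968), where 0.0815% of the tested genes were called. Of the 9 log2 values, 5 were positive and 4 negative, with a median of 0.034, beside 0.0054 over all genes tested. Every 95% interval excluded a 1.5-fold difference in either direction: the lowest bound was 0.727-fold, for Zfp36l1, and the highest 1.40-fold, for Tia1. These intervals are per gene and not adjusted for their number. All 9 lay above the interval of Hnrnpd, which ran from -0.86 to -0.49 on the log2 scale.

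**Figure D1:**
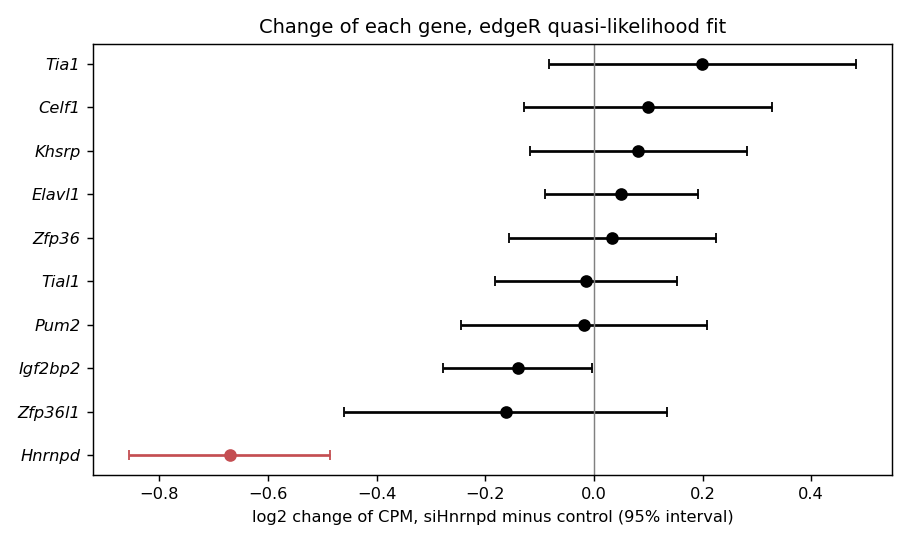
Log2 change of TMM-scaled CPM (siHnrnpd minus control, x axis) for each gene, with 95% intervals from the edgeR fit of 3 against 3 libraries. The 9 regulators lie between -0.16 and 0.20, and Hnrnpd lies apart at -0.67.

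At an unadjusted p under 0.05 there was 1 of the 9, Igf2bp2, where 11.0% of all tested genes passed. The same gene was the 1 of 9 whose groups did not overlap, against 17.0% of all tested genes. Both counts are near the share over all genes. DESeq2 also called 0 of the 9, against 1.41% of the genes with an adjusted p, and had 0 at an unadjusted p under 0.05, against 6.34% of genes.

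Elavl1 encodes HuR, a protein that binds U-rich and AU-rich sites and mostly protects the message from decay. It had 67.9, 65.6 and 70.5 CPM in controls 1 to 3 and 69.5, 70.7 and 71.1 CPM in siHnrnpd 1 to 3. The siHnrnpd libraries lay within 1.6 CPM of each other, and siHnrnpd 1 lay below control 3, so the groups overlapped. The log2 value was 0.051 with an SE of 0.063 (95% interval -0.091 to 0.19, edgeR adjusted p = 0.809). The upper bound of the interval was 1.14-fold. With 1 library left out the log2 value ran from 0.025 (without control 2) to 0.078 (without control 3), and it was 0.033 without siHnrnpd 3.

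The decay factors are Zfp36, Zfp36l1 and Khsrp. ZFP36, or tristetraprolin, recruits the CCR4-NOT deadenylase to AU-rich mRNAs, is induced quickly by growth factors and inflammatory signals, and also limits its own mRNA. Zfp36 had 48.1, 50.9 and 57.9 CPM in controls 1 to 3 and 56.8, 50.7 and 53.2 CPM in siHnrnpd 1 to 3. The siHnrnpd values all fell inside the control range, and the log2 value was 0.034 with an SE of 0.085 (edgeR adjusted p = 0.911). Its sign turned without control 1 (-0.034) and without siHnrnpd 1 (-0.010).

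Zfp36l1, a relative with similar tandem zinc fingers that also drives decay, varied most among the 9. It had 42.1, 36.8 and 31.9 CPM in controls 1 to 3 and 27.4, 38.3 and 33.2 CPM in siHnrnpd 1 to 3. The lowest of all 6 values was siHnrnpd 1 and the highest control 1, with the other libraries of both groups mixed between them. The coefficient of variation was 13.8% in control and 16.5% in siHnrnpd, against 2.96% from counting alone at this depth. The log2 value was -0.16 with an SE of 0.13 (95% interval -0.46 to 0.13, edgeR adjusted p = 0.685), and it was -0.045 without siHnrnpd 1, -0.28 without siHnrnpd 2, -0.26 without control 3 and -0.069 without control 1.

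Khsrp encodes a KH-domain protein that brings the exosome and the deadenylase PARN to AU-rich mRNAs and also aids the maturation of some microRNAs. It had 22.4, 21.6 and 24.7 CPM in controls 1 to 3 and 23.3, 23.2 and 26.4 CPM in siHnrnpd 1 to 3. Control 3 exceeded siHnrnpd 1 and 2, and siHnrnpd 3 was the highest of all. The log2 value was 0.082 with an SE of 0.089 (edgeR adjusted p = 0.782), and it was 0.0085 without siHnrnpd 3.

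Tia1 and Tial1 encode sibling RNA-recognition-motif proteins that silence translation of AU-rich mRNAs, gather in stress granules and also guide splicing. Tia1 was the rarest of the 9, with 198, 185 and 203 counts in controls 1 to 3 and 226, 246 and 235 counts in siHnrnpd 1 to 3. Scaled for depth, these were 6.83, 5.93 and 5.62 CPM in control and 6.46, 7.43 and 7.19 CPM in siHnrnpd. Control 1 exceeded siHnrnpd 1, so the groups overlapped. Its log2 value of 0.20 was the largest in size among the 9 and had an SE of 0.13 (95% interval -0.084 to 0.48, edgeR adjusted p = 0.588). Over all tested genes, 75.6% had a smaller absolute log2 value than this. At such counts the counting error alone is 6.81% for a library, and the coefficient of variation was 10.2% in control and 7.19% in siHnrnpd.

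Tial1 had 56.8, 52.9 and 51.3 CPM in controls 1 to 3 and 53.9, 56.0 and 49.4 CPM in siHnrnpd 1 to 3. The groups were interleaved, with a log2 value of -0.015 and an SE of 0.075 (edgeR adjusted p = 0.964). Its sign turned under 5 of 16 alternatives, reaching at most 0.024, without siHnrnpd 3.

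Celf1 encodes a protein of GU-rich elements that promotes deadenylation and is also a splicing regulator. It had 18.5, 17.6 and 14.8 CPM in controls 1 to 3 and 17.6, 18.4 and 18.4 CPM in siHnrnpd 1 to 3. Controls 1 and 2 lay at the edges of the siHnrnpd range and control 3 well below it. The log2 value was 0.10 with an SE of 0.10 (edgeR adjusted p = 0.763), and without control 3 it was 0.010.

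Pum2 encodes a Pumilio protein that recruits CCR4-NOT to its targets. It had 89.2, 80.5 and 76.6 CPM in controls 1 to 3 and 69.3, 88.3 and 85.6 CPM in siHnrnpd 1 to 3. As for Zfp36l1, siHnrnpd 1 was the lowest library and control 1 the highest. The log2 value was -0.018 with an SE of 0.10 (edgeR adjusted p = 0.968), and it became 0.084 without siHnrnpd 1 and 0.036 without control 1.

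Igf2bp2, also known as IMP2, belongs to a family of mRNA-binding proteins best known from embryonic tissue and tumours, and IMP2 is the member that adult tissues keep. It had 116, 111 and 119 CPM in controls 1 to 3 and 103, 105 and 105 CPM in siHnrnpd 1 to 3. All 3 siHnrnpd libraries lay below all 3 controls, with means of 115 ± 3.87 and 105 ± 0.999 CPM (SD, n = 3 each), or 90.7% of control. The log2 value was -0.14 with an SE of 0.061 and a 95% interval of -0.28 to -0.0034. It did not pass over all genes (edgeR unadjusted p = 0.0456, adjusted p = 0.443), and its adjusted p ran from 0.397 to 0.850 over 16 alternatives, all with a negative value. By FPKM the groups did not overlap either, at 27.3, 25.9 and 28.5 across controls 1 to 3 against 24.6, 24.8 and 25.6 across siHnrnpd 1 to 3. Without siHnrnpd 3 the log2 value was -0.15, and that was the only library whose removal left the unadjusted p under 0.05.

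**Figure D2:**
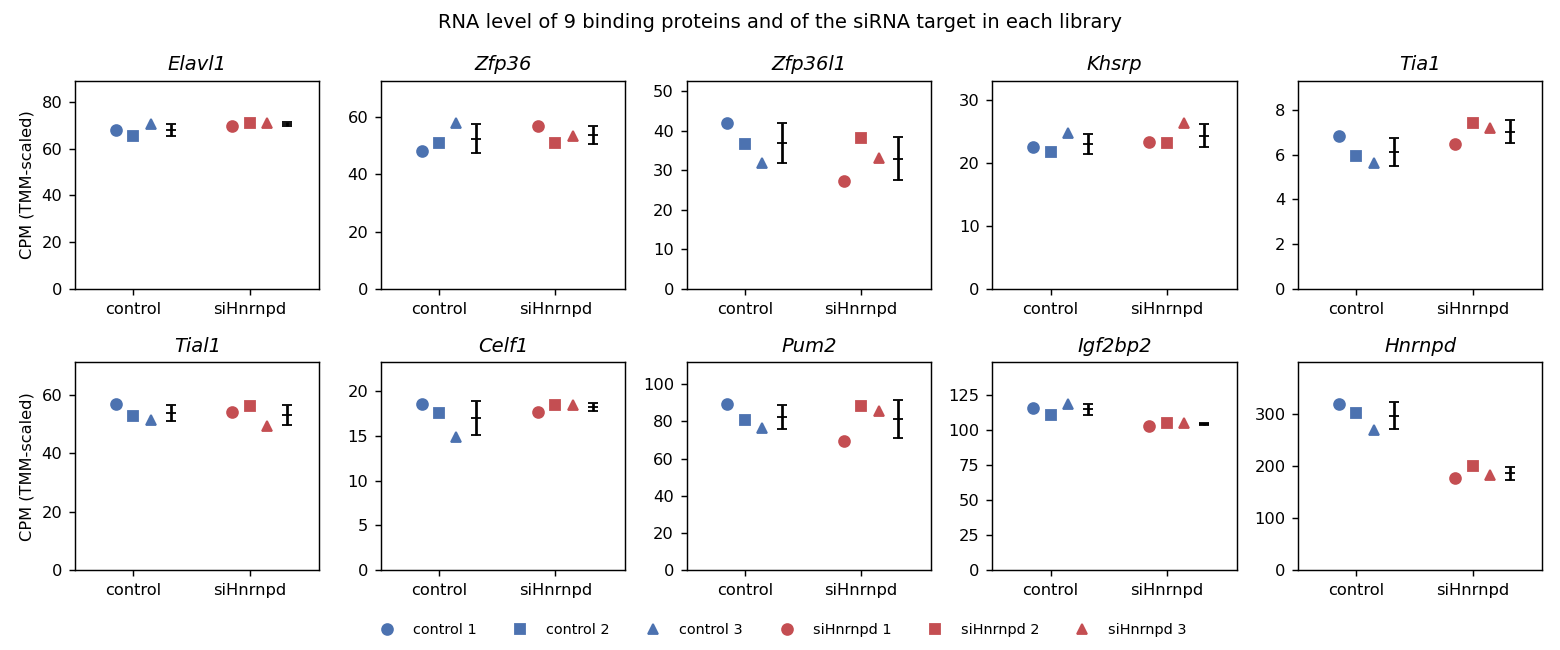
TMM-scaled CPM (y axis, from 0, a separate scale for each gene) of the 9 regulators and Hnrnpd in each of 6 libraries, with the mean and SD of each group in black. Only in the Igf2bp2 and Hnrnpd panels do the control and siHnrnpd points not overlap.

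The libraries also differed within groups, and the 9 genes fell into 2 patterns among the controls. In 5 genes (Zfp36l1, Tia1, Tial1, Celf1 and Pum2) control 1 was the highest and control 3 the lowest control. In the other 4 (Elavl1, Zfp36, Khsrp and Igf2bp2) control 3 was the highest. Such orders were common over all tested genes: control 1 was the highest and control 3 the lowest in 26.5%, and control 3 was the highest in 38.6%. These patterns were noticed after the values were seen and carry no test. Summed over the 9 genes the level was 454 ± 12.4 CPM over the controls and 445 ± 15.7 CPM over the siHnrnpd libraries (SD, n = 3 each).

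**Figure D3:**
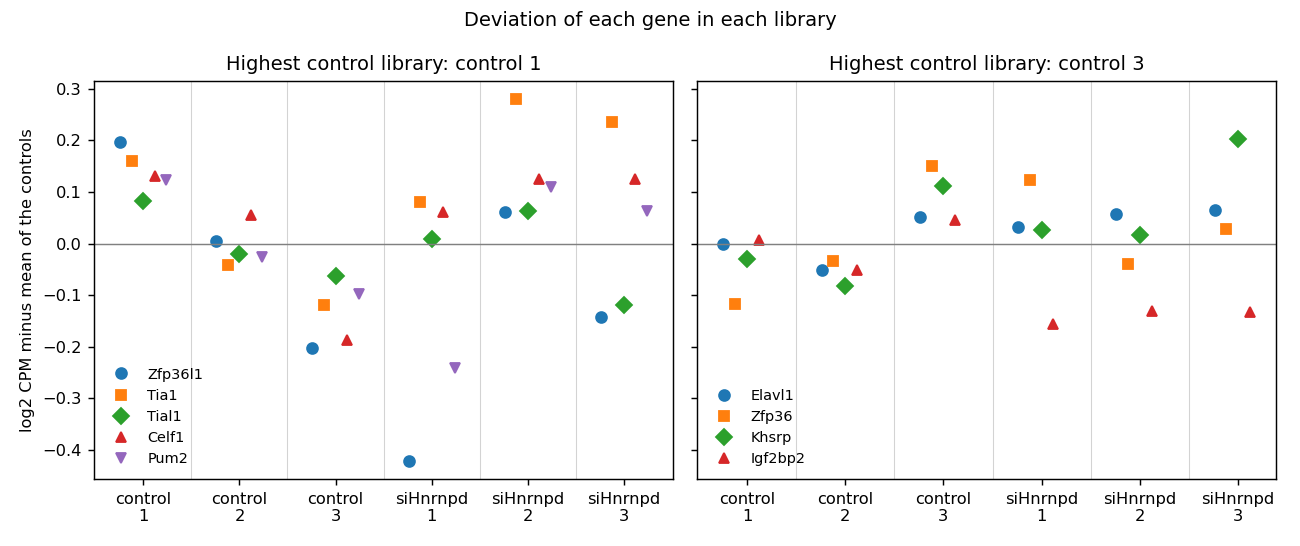
Log2 CPM of each regulator minus its mean over the controls (y axis) in each library (x axis), with genes split by which control library was highest. In the left panel all 5 genes are highest in control 1 among controls, and Zfp36l1 and Pum2 are lowest in siHnrnpd 1, at -0.42 and -0.24.

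Levels were compared between genes per length, in the authors' FPKM (fragments scaled to gene length and library size). In control the order of mean FPKM was Tial1 (27.6 ± 1.35), Igf2bp2 (27.2 ± 1.34), Zfp36 (24.2 ± 2.65), Elavl1 (23.7 ± 1.23), Zfp36l1 (11.5 ± 1.51), Pum2 (11.3 ± 0.841), Celf1 (7.23 ± 0.737), Khsrp (7.22 ± 0.624) and Tia1 (2.86 ± 0.284; SD, n = 3 each). Of the neighbours in this order, the ranges of control values did not overlap between Elavl1 and Zfp36l1, between Pum2 and Celf1, and between Khsrp and Tia1. The other neighbours overlapped, so the order does not hold 9 separate ranks. Genes further apart could still separate. In control, Tial1 (26.8 to 29.2 FPKM) and Igf2bp2 (25.87 to 28.54 FPKM) lay above Elavl1 (22.55 to 25.01 FPKM). The breaks between neighbours named above also stood in siHnrnpd. There Tial1 also separated from the gene after it in the control order, Igf2bp2, with lows and highs of 26.2 to 28.7 and 24.6 to 25.6 FPKM. The median over all tested genes was 7.46 FPKM, so Celf1 and Khsrp lay near it, Tia1 below it and the top 4 above 73.6% to 76.3% of genes.

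**Figure D4:**
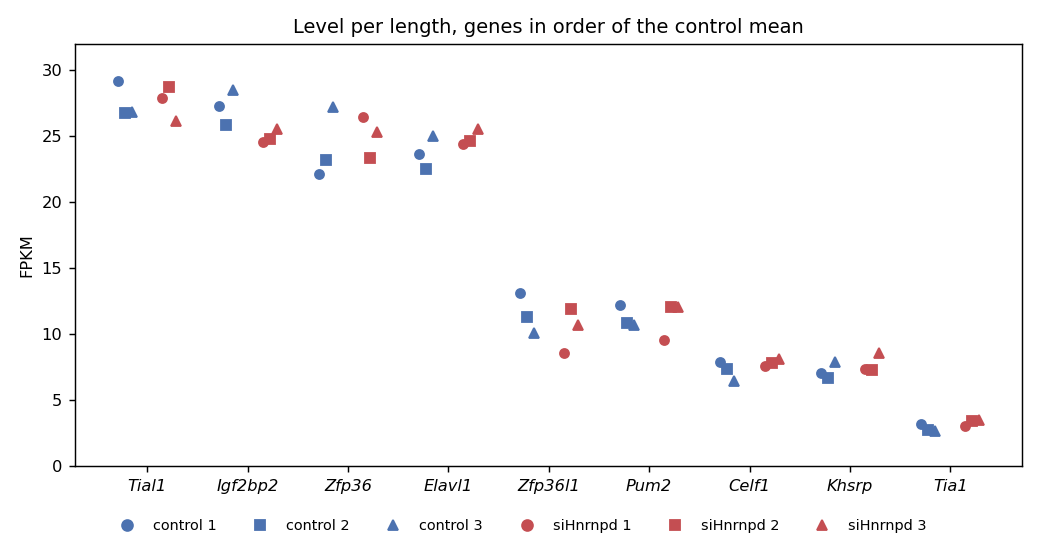
FPKM (y axis, from 0) of the 9 regulators in each library, with genes in order of the control mean. Genes from Tial1 to Elavl1 lie above 22 FPKM in all 6 libraries, Zfp36l1 and Pum2 between 8.60 and 13.1, Celf1 and Khsrp between 6.43 and 8.54, and Tia1 at most at 3.47.

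Hnrnpd itself was far more abundant than any of the 9. Its control mean of 149 ± 11.5 FPKM was 5.39 times that of Tial1 and 51.9 times that of Tia1. Summed over the 9 regulators the level was 143 ± 4.70 FPKM in control and 143 ± 3.09 FPKM in siHnrnpd (SD, n = 3 each). The ratio of Hnrnpd to this sum was 1.10, 1.09 and 0.941 across controls 1 to 3 against 0.638, 0.694 and 0.649 across siHnrnpd 1 to 3. The ratio therefore moved with Hnrnpd, whose level in siHnrnpd remained 3.42 times that of Tial1.

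Close relatives among the 9 were compared within each library. The FPKM ratio of Zfp36 to Zfp36l1 was 1.69, 2.05 and 2.69 across controls 1 to 3 against 3.07, 1.96 and 2.37 across siHnrnpd 1 to 3, so the groups overlapped. The log2 ratio differed by 0.21 between groups (exact two-sided permutation test, p = 0.5). The ratio of Tial1 to Tia1 was 9.14, 9.82 and 10.1 across controls 1 to 3 against 9.19, 8.30 and 7.54 across siHnrnpd 1 to 3. Here control 1 lay below siHnrnpd 1, and the log2 ratio of Tia1 to Tial1 differed by 0.22 (exact two-sided permutation test, p = 0.2). With 3 against 3 libraries that test cannot go below 0.1.

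The stabiliser was also set against the ZFP36 proteins, a ratio chosen after the values were seen and given with no test. Elavl1 FPKM divided by the sum of Zfp36 and Zfp36l1 was 0.671, 0.653 and 0.671 across controls 1 to 3 against 0.697, 0.698 and 0.710 across siHnrnpd 1 to 3. The groups did not overlap, with means of 0.665 ± 0.0100 and 0.702 ± 0.0074 (SD, n = 3 each), while each of the 3 genes alone overlapped between groups. Divided by Zfp36 alone, Elavl1 gave 1.07, 0.972 and 0.920 across controls 1 to 3 against 0.924, 1.05 and 1.01 across siHnrnpd 1 to 3, which overlapped, so the separation depends on the denominator chosen.

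Most of the family relatives that could stand in for these genes were scarce in HEI-OC1 cells. Of 15 relatives on a list, 11 had a row and 6 passed the filter, with 0 called by edgeR or DESeq2, beside 0.0815% and 1.41% of all genes, and 0 at an unadjusted p under 0.05 by edgeR, beside 11.0%. With 6 genes, a count of 0 says little. Fubp1, which binds U-rich and AU-rich RNA like its relative Khsrp, had 21.7 FPKM in control and Fubp3 13.7 FPKM. The relatives of Elavl1 and Igf2bp2 were far lower: Elavl2 had 0.657 FPKM, Igf2bp3 0.620 FPKM and Igf2bp1 0.0967 FPKM in control, and Elavl3, Elavl4, Celf2 and Celf6 were under the filter. The log2 values with the smallest p were those of Elavl2 (-0.28), Celf5 (0.58) and Fubp1 (0.070), with edgeR adjusted p of 0.666, 0.686 and 0.731. Celf5 lay at 0.249 CPM in control, so its value rests on few counts. Zfp36l2, Zfp36l3, Celf3 and Celf4 had no matched row and were not analysed here.

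Among 39 further proteins that bind AU-rich, GU-rich or other 3' elements, 36 were tested, and the median log2 value was 0.016. EdgeR called 0 of them and DESeq2 called 1, beside 0.0815% and 1.41% of all genes. At an unadjusted p under 0.05, 2 were higher and 1 lower, where 5.84% and 5.20% of all tested genes passed in these directions. Hnrnpa0, an hnRNP that binds AU-rich cytokine mRNAs, averaged 57.7 CPM over controls against 79.0 CPM with the siRNA, 0.45 on the log2 scale (adjusted p = 0.264 by edgeR), and was the member DESeq2 called. The Musashi protein gene Msi2 stood at 0.40 and Hnrnpa1 at -0.28 on the log2 scale, where edgeR gave adjusted p of 0.362 and 0.394.

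Genes that act on the ZFP36 proteins were next. The p38 kinase and its substrate MK2 phosphorylate ZFP36, 14-3-3 proteins hold the phosphorylated form, and the phosphatases PP2A and DUSP1 act against this. Of 18 such genes 14 were tested, with a median of -0.032, and edgeR and DESeq2 called 0, beside 0.0815% and 1.41% of all genes. At an unadjusted p under 0.05 by edgeR, 1 of the 14 was lower and 0 higher, beside 5.20% and 5.84% of all tested genes. Dusp1 had the smallest p, averaging 164 CPM over controls against 141 CPM with the siRNA (log2 value -0.23, edgeR adjusted p = 0.325). It was the lower gene and was followed by the PP2A scaffold Ppp2r1a (0.13) and the p38 isoform gene Mapk11 (0.32), with edgeR adjusted p of 0.502 and 0.545. Mapk14, the main p38 gene here, had a log2 value of -0.069, and Mapkapk2, the gene of MK2, one of 0.068.

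Of 19 partners through which the regulators act (deadenylases, exosome subunits, stress granule proteins, HuR ligands and transport receptors), all were tested, with a median of -0.011. EdgeR called 0 and DESeq2 called 1, Cp, beside 0.0815% and 1.41% of all genes. The partner of ZFP36 and PUM2, Cnot1, had a log2 value of -0.050. At an unadjusted p under 0.05, 2 of the 19 were lower and 0 higher, beside 5.20% and 5.84% of all tested genes. The 2 were Cp (-0.36) and the exosome subunit Exosc9 (-0.20), with edgeR adjusted p of 0.198 and 0.368. Cp encodes ceruloplasmin, an acute phase protein, and stands on the list although it is no partner of these proteins. Parn, the deadenylase named above for KHSRP, stood at -0.14 on the log2 scale (adjusted p = 0.484, edgeR).

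mRNAs named in earlier literature as targets of the ZFP36 family or of ELAVL1 were examined as the downstream side. Of 24 ZFP36 family targets 17 were tested, edgeR called 0, 9 were positive and 8 negative, and the median was 0.034. The list includes Zfp36 itself, whose own log2 value is that median. At an unadjusted p under 0.05 there were 3 higher and 4 lower, where 5.84% and 5.20% of all tested genes passed in these directions, and 8 of 17 did not overlap between the groups, where 17.0% of all tested genes did not. The genes were listed with earlier results of these data known, so these counts are a description only. The smallest p were those of the chemokine gene Ccl2 (log2 value -0.74), the kinase gene Plk3 (0.43) and the chemokine gene Cxcl1 (-0.30), with edgeR adjusted p of 0.0804, 0.183 and 0.203. DESeq2 called these 3 and edgeR 0, beside 1.41% and 0.0815% of all genes. Ccl2 is also listed as an AUF1 target, so these lists cannot be told apart by that gene. Relative to control, the list mean stood at -0.31 for siHnrnpd 3 and at 0.068 and 0.084 for siHnrnpd 1 and 2. This mean weights all tested genes of the list alike, including genes with few counts. Il6 had 5 counts in siHnrnpd 3 against 19 to 31 in control, and Cxcl2 had 11 against 36 to 44. The value for siHnrnpd 3 is therefore not a measure of a drop shared by the list. The siHnrnpd 3 library is also the one where the interferon-stimulated genes were lowest.

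Of 22 ELAVL1 targets 19 were tested, 8 were positive and 11 negative, and the median was -0.0097. Elavl1 itself is on this list, and Fos, Myc, Vegfa and Ptgs2 are also on the ZFP36 list, so the lists are not separate sets. EdgeR and DESeq2 called 0 of them, beside 0.0815% and 1.41% of all genes. At an unadjusted p under 0.05, 4 of the 19 were higher and 1 lower, beside 5.84% higher and 5.20% lower over all tested genes. Snai1, a transcription factor of epithelial to mesenchymal transition, had a log2 value of 0.41, the cyclin gene Ccnd1 0.35 and the cyclin gene Ccne1 -0.18, with edgeR adjusted p of 0.300, 0.310 and 0.362. Well-studied HuR targets such as Ccna2 (-0.020), Ccnb1 (-0.0055) and Myc (-0.011) lay near 0.

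**Figure D5:**
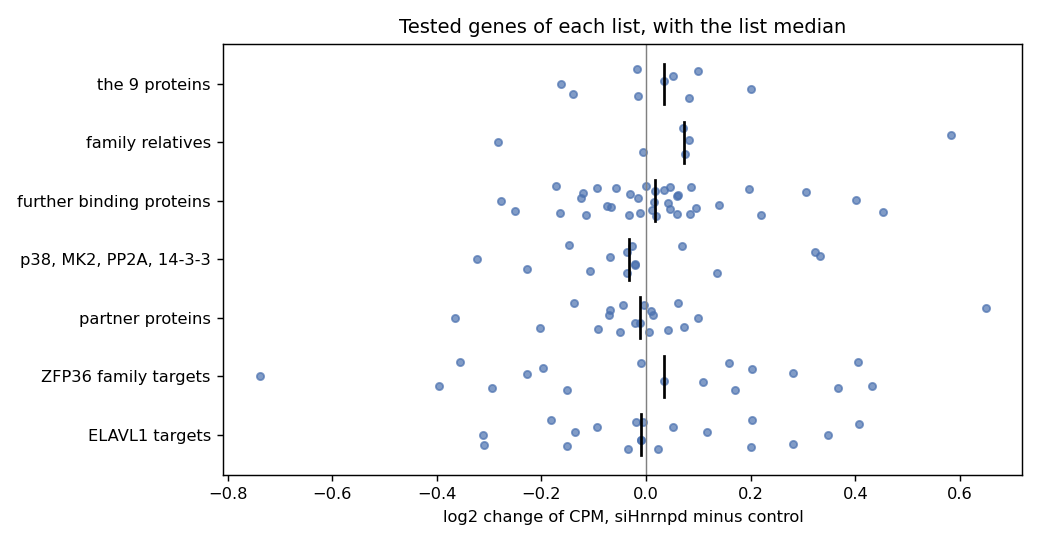
Log2 change of CPM (siHnrnpd minus control, x axis) of each tested gene on the 9-gene list and 6 further lists (y axis, vertical spread only for legibility), with list medians as black lines. List medians lie between -0.032 and 0.072, and the widest spread is that of the ZFP36 family targets, down to Ccl2 at -0.74.

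Profiles over the 6 libraries were also compared with those of all tested genes, by the root mean square distance of log2 CPM from the control mean. Igf2bp2 was closest to Mboat1 (0.017), Pias3 (0.019) and Ppap2a (0.022), and 1578 genes lay within 0.1 of it. Tia1 was closest to Pbrm1 (0.038), Vamp7 (0.039) and Polr3b (0.040), with 192 genes within 0.1.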

How the data were processed

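RNA was measured in 3 control and 3 siHnrnpd libraries. The authors aligned reads with TopHat2, per the submitters' processing notes, which name the build mRatBN7.2 and no TopHat2 version. The counter, strand setting and annotation were not given in the sources used here. Reads of overlapping or antisense genes, and of close relatives, may therefore have been mixed. Which species the reads come from could not be examined in gene tables. The deposited count table holds whole-number counts per gene, not normalized. The second deposited table holds FPKM made by the authors with gene lengths not given in the sources used here. Each column was assigned to a sample through its siRNA and number, leaving 0 unassigned.

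Counts were fitted for all genes by edgeR 4.0.16 (R 4.3.3) after filterByExpr and TMM scaling, with the quasi-likelihood test, Benjamini-Hochberg adjustment over 12268 genes, calls at an adjusted p under 0.05. Intervals at 95% came from the log2 change, its SE and the fit's degrees of freedom. Log2 CPM used a prior count of 2. Alternatives used DESeq2 1.42.0 and limma 3.58.1. The test scripts were tested on simulated data. None of 15 library pairs agreed within sampling noise (lowest chi-square per degree of freedom 11.9). Of 210 list symbols, 183 matched by symbol, 1 through RefSeq synonyms (GRCr8 table, names only) and 26 did not. The named genes were the 9 regulators, Hnrnpd, up to 3 genes of each further list of regulators, partners and targets with the smallest p, and the 3 nearest profiles of Igf2bp2 and Tia1. The other genes named for their role or level were added after their values were seen. The regulators and lists were chosen with earlier results of these data known. Some results are not reported here.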

Additional observations from a re-analysis of the deposited data

How the results depend on the processing

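Across 16 alternatives, 0 of the 9 regulators were called in any. The count at an unadjusted p under 0.05, 1 in the reported fit, was 0 with DESeq2, upper-quartile scaling, no filter, the replicate block and the 3 limma fits on log2(FPKM + 1) or log2(FPKM + 0.1), and 0 to 1 when 1 library was left out. The median log2 value of the 9 was 0.010 to 0.060 over the leave-one-out fits and 0.026 to 0.054 over the others. Of the single genes, 3 changed sign somewhere and all stayed far from a call: Tial1 (0.00036 with log2(FPKM + 1), with or without the minimum, and 0.00037 with log2(FPKM + 0.1); -0.055 to 0.024 over the leave-one-out fits), Zfp36 (-0.034 to 0.11) and Pum2 (-0.083 to 0.084). The cause was not tested. The log2 difference of the Zfp36 to Zfp36l1 ratio was 0.035 to 0.38 and that of the Tia1 to Tial1 ratio 0.15 to 0.29 when 1 library was left out, in tests too small to pass. With the replicate number as a block the median was 0.037 and the lowest adjusted p 0.644 (edgeR). Same-numbered libraries gave correlations of -0.262, 0.137 and 0.104 of their deviations from the group means, and other pairs gave -0.332 to 0.232. These values show no pairing by number. With 3 libraries in a group they cannot decide whether the libraries were paired. With the block Hnrnpd was not called (adjusted p = 0.0873). Hnrnpd was also not called on log2(FPKM + 1), with an adjusted p of 0.0508 with the minimum and 0.137 without it (limma). Depth limits Tia1 most, with about 200 counts in a library.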
